A study of Mus musculus with 4 samples.

Results

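The genes described here are 10 components of the mTORC1 and AMPK nutrient-sensing pathway: Mtor, Rptor, Rheb, Tsc1, Tsc2, Rragc, Rragd, Prkaa1, Prkaa2 and Eif4ebp1. Their probe sets were taken by annotated gene symbol alone, a rule that uses no measured value. On the Affymetrix array used, 11 probe sets of the 22626 tested carried 1 of these symbols, and they read 7 of the 10 genes. Mtor was read by 2 probe sets, Tsc1 by 2, Eif4ebp1 by 3, and Rheb, Tsc2, Rragc and Rragd by 1 each. Rptor, Prkaa1 and Prkaa2 had no probe set under their symbols in the annotation used here and were not analysed here. The measured members therefore belong to mTORC1, its regulators and, with Eif4ebp1, its substrates, and neither catalytic subunit of AMPK is among them.

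Mouse liver RNA came from 2 starved and 2 control samples. The starved mice were wild type of the C57/BL6 background, 1 month old and starved for 24 h. The control mice were wild type of the same background and age and were not starved, per the titles and the treatment field. The description field calls the starved mice injected and the control mice not injected, without naming what was injected, so the groups may also differ in that. The samples of each group are labelled as biological replicates, 1 array per sample. The titles do not say whether a sample is 1 mouse or a pool.

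mTORC1 is a protein kinase complex at the lysosome that drives protein synthesis and cell growth and holds back autophagy when nutrients are plentiful. Amino acids act through the Rag GTPases, which bring mTORC1 to the lysosomal surface, and insulin acts through the TSC complex, which keeps the activating GTPase Rheb in its inactive form. AMPK responds to low energy charge and restrains mTORC1 through TSC2 and raptor, and in the fasting liver it also restrains lipid synthesis. This control is exerted mainly by phosphorylation and by protein location, which an array does not measure. The values below are transcript signals only.

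The deposited values are log2 RMA signals, 1 per probe set, normalized so that the arrays have like distributions. A change is the mean of the starved arrays minus the mean of the control arrays on that log2 scale. Signals of different probe sets are not comparable as transcript levels. Across the arrays the hepatocyte markers were high, with Alb at 15.26 and 15.28 in starved liver and at 15.30 and 15.21 in control liver. Summed over the 15 probe sets of 10 hepatocyte genes, the log2 signal was 18.55 to 18.59 in starved liver and 18.52 to 18.59 in control liver. Of 113 probe sets for markers of 10 other cell types, 0 passed the limma test, beside 13, or 0.0575%, of all probe sets. With so few passing anywhere, the count of 0 cannot show that the mix of cells was unchanged. For endothelial cells the summed log2 marker signals overlapped between groups, at 11.99 and 11.80 in starved liver and 12.23 and 11.49 in control liver. They overlapped too for stellate cells and fibroblasts, at 12.21 and 12.26 in starved liver and 12.59 and 11.78 in control liver, and for neutrophils, at 8.89 and 9.19 in starved liver and 8.91 and 9.70 in control liver. For cholangiocytes the sums did not overlap, at 8.823 and 8.999 in starved liver and 8.645 and 8.637 in control liver. For pancreas markers they did not overlap either, at 10.153 and 10.373 in starved liver and 11.084 and 11.047 in control liver. The brightest pancreas probe set read Cela1, with a change of -1.31, and over that list 6 changes were positive and 5 negative. The sums of the remaining cell type lists overlapped. Sums can hide single markers. Both Lyve1 probe sets of the endothelial list were higher in starved liver without overlap, by 1.81 and 1.09. Over that list 5 changes were positive and 9 negative. In the stellate list 1 Col3a1 probe set was lower without overlap, at -1.53, and the other overlapped, at -0.16. Over that list 8 changes were positive and 7 negative. Lyve1 and Col3a1 were named after their values were seen. Of the 4 arrays, control 2 was the lowest in the endothelial and stellate sums and the highest in the neutrophil sum. The array control 2 also stood apart in acute phase genes. Orm2, Lcn2, Saa2 and Saa3 each differed by more than 2 log2 units between the control arrays, as with Orm2, at 9.10 and 9.25 in starved liver and at 9.34 and 13.79 in control liver. The summed acute phase signal was 16.93 and 16.96 in starved liver and 17.23 and 18.12 in control liver. All 15 changes of that list were negative, and starved was lower without overlap in 11, beside 20.6% of all probe sets. An unadjusted p under 0.05 was reached in limma by 7, all lower, beside 6.04% of all. The part of this group difference in the results was not tested. RNA integrity was read from the Affymetrix actin controls, where the 3′ minus 5′ log2 signal was 2.06 and 1.85 in starved liver and 1.79 and 1.76 in control liver. For Gapdh it was 0.86 and 0.48 in starved liver and 0.65 and 0.54 in control liver, where the groups overlapped. Changes without control 2 are given for every member and for each leading probe set of the wider pathway that they move by more than 1.5 times, and the part of RNA integrity and of these cell type markers in the results was not tested.

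None of the 11 probe sets differed between starved and control liver beyond the error of the comparison. In limma, with Benjamini-Hochberg adjustment over all 22626 probe sets, 0 of the 11 passed an adjusted p of 0.05, and the smallest adjusted p was 0.534. At an unadjusted p under 0.05 the count was also 0 of 11. Over the whole array 13 probe sets passed the adjusted threshold, or 0.0575%, with 0.0177% higher and 0.0398% lower in starved liver. The unadjusted threshold was passed by 2592, or 11.5%. The changes ran from -0.21 for Tsc2 to 0.24 for Rragc. Their median was 0.07, against 0.0028 for all probe sets, and 8 of 11 were positive, against 50.8% of all probe sets. The median size of a change without regard to sign was 0.14 for the 11 and 0.13 for all probe sets, so the members were about as far from 0 as a typical probe set. RNA from whole liver cannot tell apart fewer cells of a type from less RNA per cell.

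In 7 of the 11 probe sets the starved and control arrays did not overlap, 5 with starved higher and 2 with starved lower. Over the whole array the groups did not overlap in 41.9% of probe sets, with starved higher in 21.3% and lower in 20.6%. These 7 probe sets read Mtor, Rheb, Rragc and Eif4ebp1 on the higher side and Tsc2 and Rragd on the lower side. A stricter description, chosen after the values were seen, asks that the distance between the groups exceed the difference between replicates in both groups. It held for 2 of the 11, Rheb and Rragd, and for 14.2% of all probe sets.

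**Figure D1:**
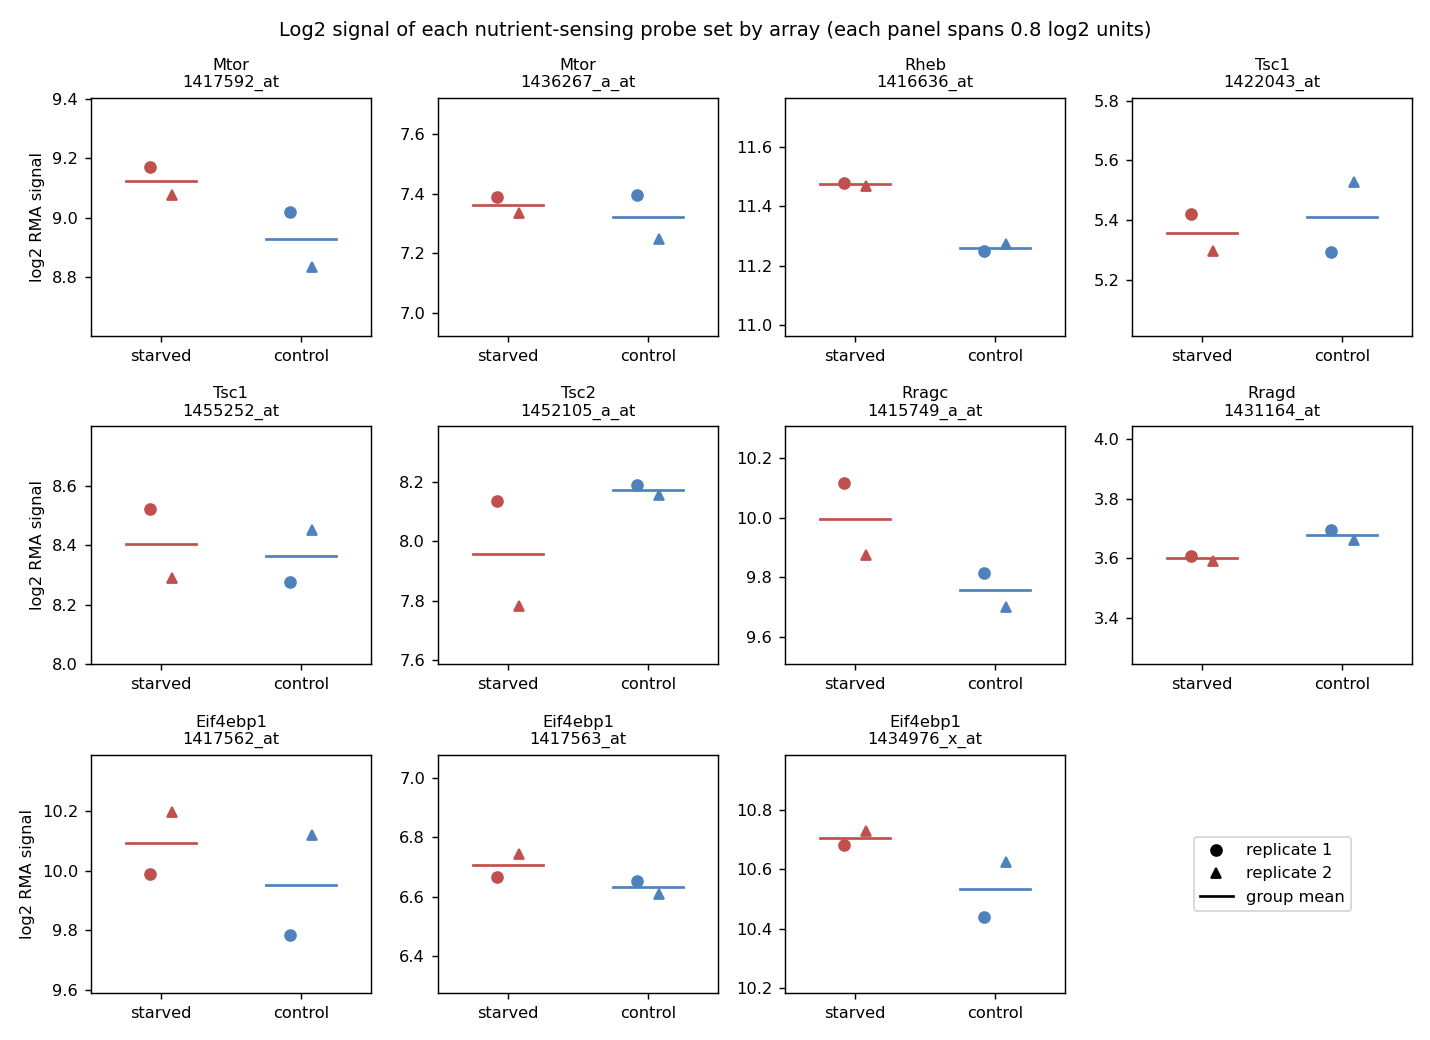
Log2 RMA signal of each of the 11 probe sets (vertical axis) in the starved and control arrays, with circles for replicate 1, triangles for replicate 2 and a line at each group mean. Every panel spans the same range of log2 units, and the Rheb arrays lie closest together within groups relative to the distance between groups.

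Mtor encodes the kinase itself and lies on chromosome 4 from 148448582 to 148557685 in GRCm38.p6. Its brighter probe set, 1417592_at, read 9.17 and 9.08 in starved liver and 9.02 and 8.84 in control liver. Both starved arrays lay above both control arrays, but the lower starved array was only 0.06 above the higher control array. The change was 0.20 ± 0.13 (SE, n = 2 per group; limma, adjusted p = 0.623), with a 95% interval of -0.11 to 0.51. Without control 2 it was 0.11. The other Mtor probe set, 1436267_a_at, read 7.39 and 7.33 in starved liver and 7.39 and 7.25 in control liver. There the groups overlapped, the change was 0.04, and it was -0.03 without control 2.

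Rheb is the small GTPase that, bound to GTP, activates mTORC1 directly, and it lies on chromosome 5 from 24802823 to 24842361 in GRCm38.p6. Its probe set read 11.48 and 11.47 in starved liver and 11.25 and 11.27 in control liver. The starved arrays lay at least 0.19 above the control arrays, while replicates differed by 0.01 in the starved group and by 0.03 in the control group. The change was 0.21 ± 0.11 (SE, n = 2 per group; limma, adjusted p = 0.534), or 1.16-fold, with a 95% interval of -0.06 to 0.49. limma estimates each probe set's variance partly from all others, with 3.83 prior degrees of freedom, so the close replicates of Rheb counted for less than they would alone. With 1 array left out in turn the change stayed between 0.20 and 0.23, and it was 0.23 without control 2.

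Tsc1 and Tsc2 encode hamartin and tuberin, the partners of the TSC complex, in which Tsc2 supplies the GTPase-activating domain that turns Rheb off and Tsc1 stabilises it. The Tsc2 probe set read 8.14 and 7.78 in starved liver and 8.19 and 8.16 in control liver. Starved 2 was well below the other arrays, and starved 1 lay 0.02 below the lower control array. The change was -0.21 ± 0.15 (SE, n = 2 per group; limma, adjusted p = 0.668), with a 95% interval of -0.59 to 0.16. It was -0.39 without starved 1 and -0.04 without starved 2, so its size rested on starved 2, and it was -0.23 without control 2. Tsc2 lies on chromosome 17 from 24595816 to 24632676 in GRCm38.p6.

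Tsc1 lies on chromosome 2 from 28640993 to 28691172 in the same assembly. Its brighter probe set, 1455252_at, read 8.52 and 8.29 in starved liver and 8.28 and 8.45 in control liver. Its dimmer probe set, 1422043_at, read 5.42 and 5.30 in starved liver and 5.29 and 5.53 in control liver. The groups overlapped in both, and the changes were 0.04 ± 0.14 and -0.05 ± 0.14 (SE, n = 2 per group; limma, adjusted p = 0.960 and 0.942). Their 95% intervals were -0.30 to 0.38 and -0.39 to 0.28. Without control 2 the changes were 0.13 and 0.07. Neither sign was stable, since leaving out single arrays turned both.

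**Figure D2:**
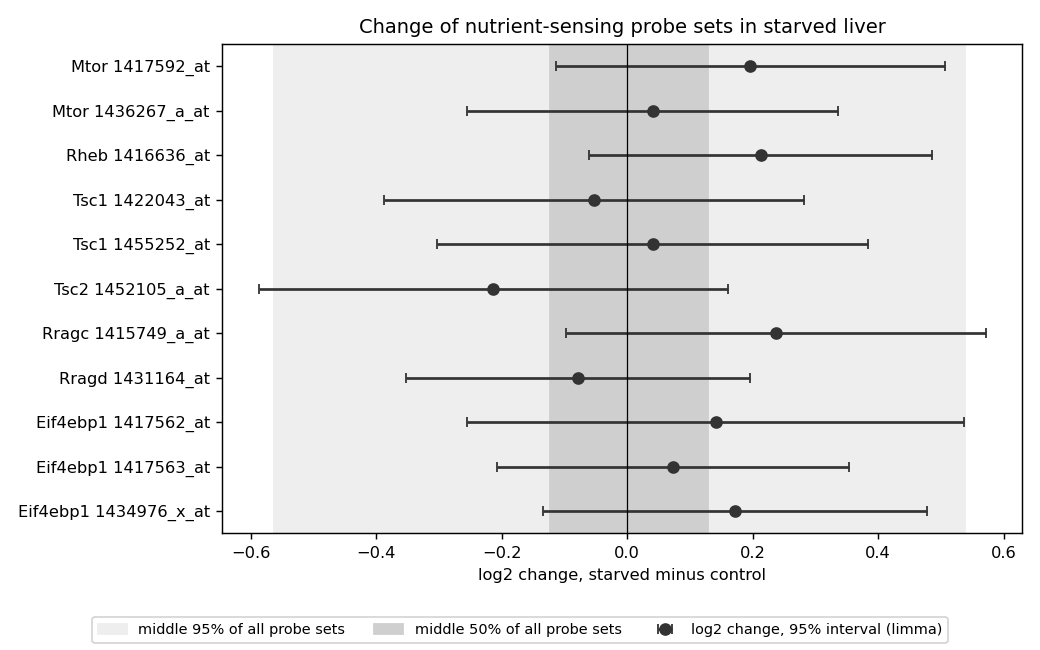
Log2 change, starved minus control, of each of the 11 probe sets (horizontal axis) with its 95% interval from limma, over grey bands for the middle 50% and middle 95% of all probe sets. Each interval includes 0, and each point lies inside the band that holds the middle 95% of all probe sets.

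Rragc and Rragd encode close paralogues, RagC and RagD, each of which pairs with RagA or RagB to form the heterodimer that recruits mTORC1. The Rragc probe set read 10.12 and 9.87 in starved liver and 9.82 and 9.70 in control liver. Both starved arrays were higher, starved 2 by 0.06 over the higher control array. The change was 0.24 ± 0.14 (SE, n = 2 per group; limma, adjusted p = 0.576), or 1.18-fold, with a 95% interval of -0.10 to 0.57. It was the furthest from 0 of the 11, and it was 0.12 without starved 1, 0.36 without starved 2 and 0.18 without control 2. Rragc lies on chromosome 4 from 123917433 to 123936997 in GRCm38.p6.

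The Rragd probe set read 3.61 and 3.59 in starved liver and 3.69 and 3.66 in control liver. Both starved arrays were lower, by at least 0.055. The change was -0.08 ± 0.11 (SE, n = 2 per group; limma, adjusted p = 0.864), with a 95% interval of -0.35 to 0.20. Without control 2 it was -0.09. Only 3.95% of all probe sets had a lower mean signal, so the probe set was close to the floor of the array and a change of Rragd could be compressed there. Detection calls were not used here, and the low signal is not a measure of absence. The paralogues thus gave changes of opposite sign on probe sets of very unequal brightness, and the difference between them was not tested. Rragd lies on chromosome 4 from 32982998 to 33022180 in GRCm38.p6.

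The promoter windows of Rheb and Rragc are shown because these genes had the 2 largest positive changes of the members and both windows hold the same short motif. Each window is the RefSeq sequence on GRCm38.p6 from 250 bases before to 50 bases after the annotated start, on the gene's own strand. The capitals mark CACGTG, the core of the E-box that TFEB and related factors read. The Rheb window is chr5:24842312-24842611 on the minus strand and the Rragc window is chr4:123917183-123917482 on the plus strand.
Rheb: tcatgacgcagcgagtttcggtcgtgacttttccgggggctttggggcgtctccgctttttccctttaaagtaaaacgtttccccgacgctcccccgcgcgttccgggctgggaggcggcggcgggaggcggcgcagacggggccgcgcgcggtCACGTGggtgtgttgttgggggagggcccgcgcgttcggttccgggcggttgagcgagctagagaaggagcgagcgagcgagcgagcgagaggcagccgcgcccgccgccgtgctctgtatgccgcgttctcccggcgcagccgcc
Rragc: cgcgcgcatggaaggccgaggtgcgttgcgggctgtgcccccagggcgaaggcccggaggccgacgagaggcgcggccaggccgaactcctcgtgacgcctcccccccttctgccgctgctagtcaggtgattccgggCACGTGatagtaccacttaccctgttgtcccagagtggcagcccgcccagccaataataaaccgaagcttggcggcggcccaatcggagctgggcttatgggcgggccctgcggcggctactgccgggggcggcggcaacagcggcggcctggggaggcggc

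CACGTG is its own reverse complement and was found once in each of these windows. The motif began 96 bases before the start in Rheb and 112 bases before it in Rragc. RefSeq windows were found for 9 of the 10 genes, including the 3 without a probe set, and 2 of the 9 held the motif. Among all 32851 windows of this length 7.15% did, a share not matched for base content. The G and C share was 70.0% in the Rheb window and 70.7% in the Rragc window, against a median of 52.7% over all windows. The forkhead motif GTAAACA and the letters TGATGCA of the element read by ATF4, both searched on either strand, were in 0 of the 9 member windows and in 3.65% and 3.15% of all windows. None of the 3 motifs overlaps another in these windows. These matches describe letters in a window, and no binding was measured.

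Eif4ebp1 encodes 4E-BP1, which binds the cap-binding factor eIF4E and blocks translation until mTORC1 phosphorylates it, and it lies on chromosome 8 from 27260327 to 27275656 in GRCm38.p6. The probe set 1434976_x_at read 10.68 and 10.73 in starved liver and 10.44 and 10.63 in control liver. Both starved arrays were higher, by at least 0.056, and the change was 0.17 ± 0.12 (SE, n = 2 per group; limma, adjusted p = 0.674), with a 95% interval of -0.13 to 0.48. Probe sets ending in _x_at may also hybridise to related transcripts. The probe set 1417562_at read 9.99 and 10.20 in starved liver and 9.78 and 10.12 in control liver. Here the groups overlapped, and replicate 2 was the higher array in each group. The change was 0.14 ± 0.16 (SE; limma, adjusted p = 0.820), with 0.31 without control 2 and -0.03 without control 1. The dimmest probe set, 1417563_at, read 6.67 and 6.74 in starved liver and 6.65 and 6.61 in control liver. Its groups did not overlap, but the lower starved array was 0.01 above the higher control array, and the change was 0.07 ± 0.11 (SE; limma, adjusted p = 0.880). All 3 changes of Eif4ebp1 were positive and none passed the test. Without control 2 the changes of 1434976_x_at and 1417563_at were 0.26 and 0.05.

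**Figure D3:**
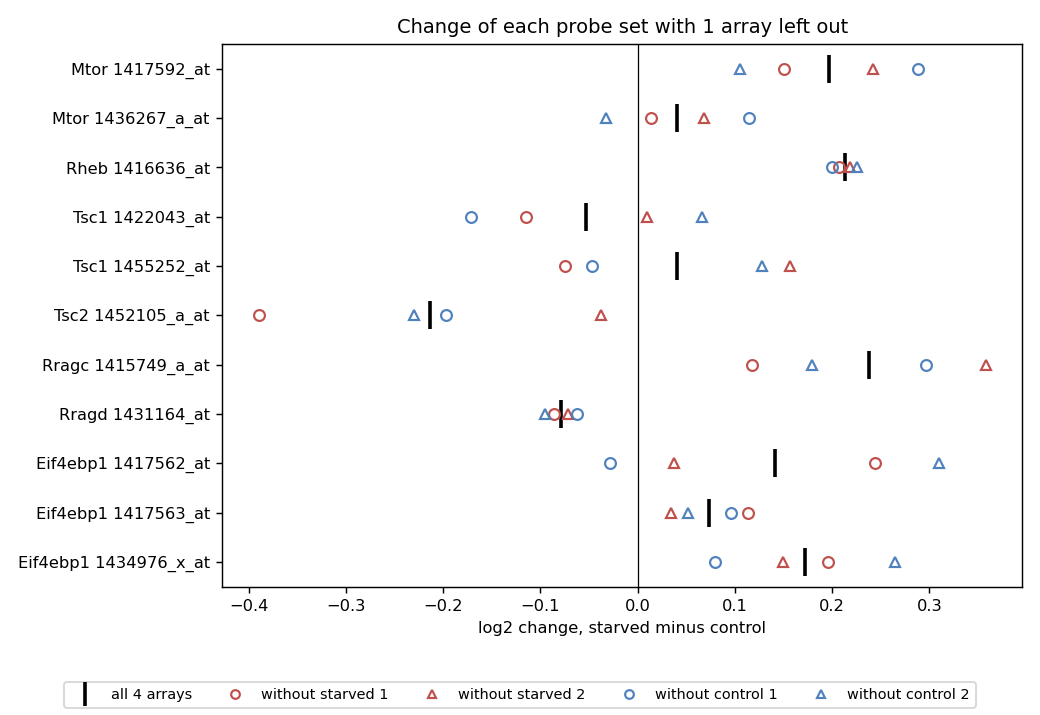
Log2 change, starved minus control, of each of the 11 probe sets (horizontal axis) with all 4 arrays (bar) and with each array left out in turn (red for starved, blue for control, circles for replicate 1, triangles for replicate 2). Rheb and Rragd moved least, and 4 probe sets of Mtor, Tsc1 and Eif4ebp1 crossed 0.

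The wider pathway was described through 9 lists of other genes, which name 117 genes and measured 88 of them on 175 probe sets. In limma 0 of the 175 passed the adjusted threshold over all probe sets. At an unadjusted p under 0.05 there were 18 higher and 10 lower, against 5.42% and 6.04% of all probe sets. The median change over the 175 was 0.02. The groups did not overlap in 84 probe sets, 45 with starved higher and 39 with starved lower, beside the 41.9% of all probe sets given above. Genes named below are those with the smallest p in each list among probe sets whose groups did not overlap, and none of them passed the adjusted test. They show the extreme of each list and not its typical member, and other probe sets of the same gene are given where they differ.

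The partners of mTOR and the TSC complex gave 10 probe sets of 6 genes, with a median change of -0.02, or -0.16 to -0.02 over all alternatives. The smallest adjusted p was 0.472 in limma, and 0 had an unadjusted p under 0.05, beside 11.5% of all probe sets. Deptor, an inhibitory subunit of mTOR complexes, read 10.80 and 10.74 in starved liver and 11.03 and 11.02 in control liver, a change of -0.25 ± 0.11 (SE). Its other probe sets had changes of -0.16 and 0.04. Mapkap1, a subunit of mTORC2, had changes of -0.17 and 0.04 on its 2 probe sets, and Prr5, another mTORC2 subunit, of -0.04. Mlst8, a subunit of both complexes, read 5.19 and 5.20 in starved liver and 4.93 and 4.99 in control liver on 1 probe set, a change of 0.23, and the other Mlst8 probe set had a change of -0.22.

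The Rag and lysosomal scaffold list gave 15 probe sets of 8 genes. Of the 15 changes 13 were negative, beside 11132 of all 22626 probe sets. The median was -0.10, or -0.17 to -0.07 over all alternatives. The groups did not overlap in 8 probe sets, beside 41.9% of all probe sets, and starved was lower in 7 of them, beside 20.6% of all. These 7 read only Lamtor1, Lamtor2, Lamtor5 and Rraga, and probe sets of 1 gene are not independent. At an unadjusted p under 0.05 the count was 0, beside 11.5% of all. Of Ragulator, the scaffold that anchors the Rag GTPases to the lysosome, Lamtor5 read 10.50 and 10.38 in starved liver and 10.68 and 10.76 in control liver, a change of -0.28 ± 0.12 (SE). Lamtor1, which carries the lipid anchor of the scaffold, had a change of -0.26 ± 0.11 and Lamtor2 of -0.29 ± 0.13 (SE). The other probe sets of these 3 genes had changes of -0.18 to -0.09. Rraga, the GTPase that pairs with RagC or RagD, read 9.04 and 9.19 in starved liver and 9.20 and 9.56 in control liver, a change of -0.27. Without control 2 the Rraga change was -0.09 and without control 1 it was -0.44.

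GATOR complexes and amino acid sensors gave 22 probe sets of 12 genes, with a median of 0.14. The sign of that median was not stable, since it was -0.04 with 1 probe set per gene and -0.02 without starved 1, within a range of -0.04 to 0.17 over all alternatives. Sesn2, a leucine sensor that restrains mTORC1 and is induced by stress, read 7.46 and 7.19 in starved liver and 6.49 and 6.64 in control liver. Its change was 0.76 ± 0.14 (SE; limma, adjusted p = 0.153), and its other probe set had a change of 0.19, or 0.12 without control 2. Mios, a subunit of GATOR2, had changes of 0.41 and 0.43 on its 2 probe sets, the second of them 0.21 without control 2. Seh1l, another subunit of GATOR2, had a change of 0.42 on its dimmest probe set, and its 5 others ran from -0.33 to 0.17, with -0.04 on the brightest. Kptn, a subunit of KICSTOR, had a change of -0.35. Sesn3, a relative of Sesn2, had a change of -0.34, and its groups did not overlap. At an unadjusted p under 0.05 the list had 3 higher and 3 lower, beside 5.42% and 6.04% of all probe sets.

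AMPK partners gave 23 probe sets of 9 genes, with a median of 0.04, or 0.03 to 0.13 over all alternatives. The smallest adjusted p was 0.365 in limma. An unadjusted p under 0.05 was reached by 1 higher and 0 lower, beside 5.42% and 6.04% of all probe sets. Prkag2, a nucleotide-binding gamma subunit, read 7.51 and 7.25 in starved liver and 7.03 and 6.93 in control liver on 1451140_s_at, a change of 0.40 ± 0.14 (SE). Its 2 other probe sets had changes of 0.33 and -0.27, and the last was -0.06 without control 2. Prkab1, a beta subunit that scaffolds the complex, had changes of 0.31 and 0.25 on its 2 probe sets. Cab39l, a relative of the scaffold of the upstream kinase LKB1, had a change of 0.43, which was 0.27 without control 2 and 0.20 without starved 1. Of its other probe sets, 1449966_s_at changed by 0.36 with overlapping groups, or 0.07 without starved 1, and 1420733_at by 0.09. Map3k7, which encodes the kinase TAK1, had a change of -0.21, and its 4 other probe sets ran from -0.14 to 0.04.

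Genes whose proteins AMPK phosphorylates gave 20 probe sets of 12 genes, with a median of -0.06, or -0.08 to 0.01 over all alternatives. The 4 genes named here all had negative changes, but over the list 9 changes were positive and 11 negative. The groups did not overlap in 4 probe sets with starved higher and 6 with starved lower, beside 21.3% and 20.6% of all probe sets. In limma 0 were higher and 4 lower at an unadjusted p under 0.05, beside 5.42% and 6.04% of all. Srebf1, the transcription factor of lipid synthesis, read 8.46 and 9.57 in starved liver and 11.84 and 11.02 in control liver (limma, adjusted p = 0.131). Pfkfb3, which makes the glycolytic activator fructose-2,6-bisphosphate, had a change of -1.02 ± 0.19 on its brighter probe set (SE; limma, adjusted p = 0.149) and of -0.10, with overlapping groups, on the other. Acacb, the acetyl-CoA carboxylase at mitochondria, had a change of -0.85, which was -0.55 without control 2. Mlxipl, which encodes the glucose-responsive factor ChREBP, had a change of -0.57, which was -0.32 without starved 1.

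**Figure D4:**
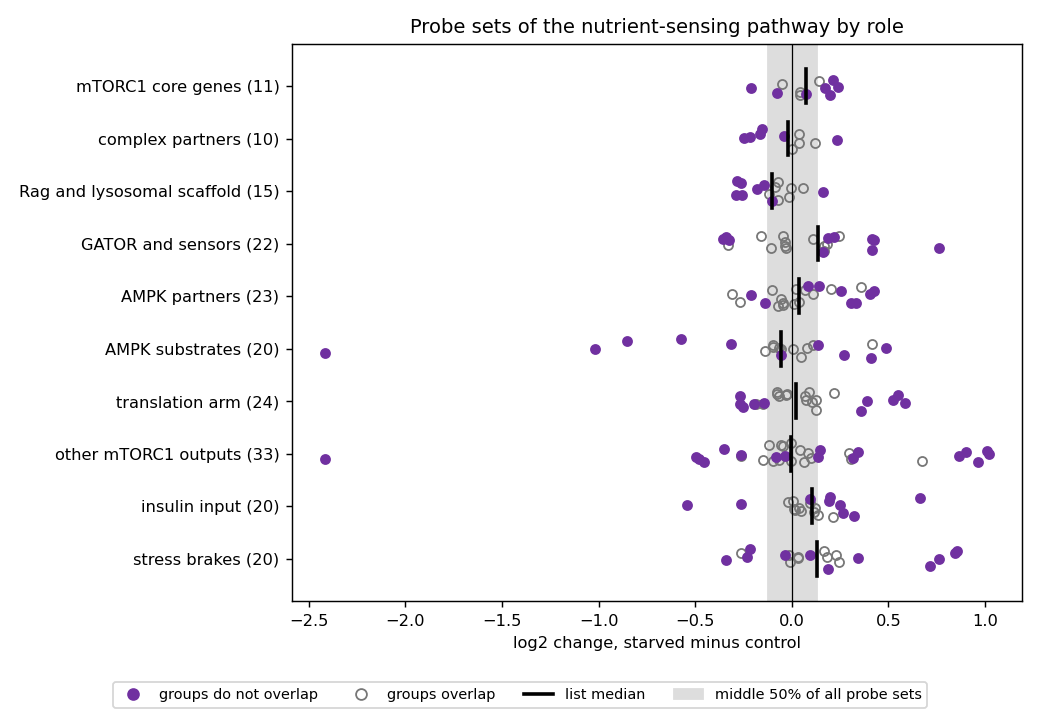
Log2 change, starved minus control, of each probe set (points, horizontal axis) of the measured members and of the 9 further lists, with the number of probe sets in parentheses, filled points where the groups did not overlap and a bar at each median. Every median lies between -0.10 and 0.14, and the points far from 0 are few in each list.

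Below mTORC1, the translation arm gave 24 probe sets of 11 genes with a median of 0.02, or -0.06 to 0.11 over all alternatives. At an unadjusted p under 0.05 there were 5 higher, beside 5.42% of all probe sets, and 0 lower, beside 6.04%. Eif4b, a helicase cofactor phosphorylated by S6 kinase, read 10.03 and 9.99 in starved liver and 9.58 and 9.39 in control liver on 1426378_at, a change of 0.52 ± 0.12 (SE; limma, adjusted p = 0.230). Its 2 other probe sets had changes of 0.59 and 0.39, and without control 2 these were 0.40 and 0.24. Maf1, a repressor of RNA polymerase III that mTORC1 inhibits, had changes of 0.55 and 0.36 on its 2 brighter probe sets and of -0.07 on the dimmest. Eif4e, the partner of 4E-BP1, had changes of -0.25, -0.14 and -0.27 on its 3 probe sets, and the last was -0.10 without control 2. Eif4a1, the helicase of the same complex, had a change of -0.27 on its dimmest probe set, or -0.15 without control 2, and of 0.07 and -0.03 on the 2 brighter ones, where the groups overlapped.

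The other outputs of mTORC1 gave 33 probe sets of 13 genes with a median of -0.01, or -0.06 to 0.07 over all alternatives. In limma 5 probe sets were higher and 3 lower at an unadjusted p under 0.05, beside 5.42% and 6.04% of all. Srebf1, described above, belongs to this list too and had its smallest p. Ppargc1a, a coactivator of oxidative genes, read 8.10 and 7.19 in starved liver and 6.53 and 6.73 in control liver on 1437751_at, a change of 1.02 ± 0.29 (SE; limma, adjusted p = 0.297). Without starved 1 that change was 0.57. The other Ppargc1a probe sets had changes of 0.87 to 1.01, which were 0.25 to 0.37 without starved 1. Srebf2, the transcription factor of cholesterol synthesis, had changes of -0.50 and -0.26 on its 2 probe sets. Grb10, an adaptor that restrains insulin signalling, had a change of -0.48 on 1 probe set and of -0.07 and 0.06 on the 2 others, where the groups overlapped. Tfeb, the lysosomal transcription factor that mTORC1 keeps in the cytoplasm, read 7.12 and 7.30 in starved liver and 7.29 and 7.36 in control liver, and its groups overlapped.

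Insulin input to the TSC complex gave 20 probe sets of 12 genes, with a median of 0.11, or 0.04 to 0.22 over all alternatives. Of the 20 changes 17 were positive, beside 50.8% of all probe sets. Some of these were near 0, as with Insr at 0.0049, and probe sets of 1 gene are not independent. The groups did not overlap in 7 with starved higher and 2 with starved lower, beside 21.3% and 20.6% of all. Irs2, an insulin receptor substrate, read 7.68 and 7.31 in starved liver and 7.14 and 6.52 in control liver, a change of 0.66 ± 0.24 (SE; limma, adjusted p = 0.389). Without control 2 it was 0.35. Pik3r1, the regulatory subunit of PI3-kinase, had a change of -0.54 on 1425515_at and of 0.10 and 0.12 on its 2 other probe sets, both of which turned negative without control 2. Phlpp1, a phosphatase of Akt, had a change of 0.32. Akt2, the main Akt of the liver, had changes of -0.26 and 0.01 on its 2 probe sets. Over the list 2 probe sets were higher and 1 lower at an unadjusted p under 0.05 in limma, beside 5.42% and 6.04% of all.

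Stress-induced brakes on mTORC1 gave 20 probe sets of 11 genes with a median of 0.13, or 0.03 to 0.27 over all alternatives, the lowest with 1 probe set per gene. At an unadjusted p under 0.05 there were 4 higher and 1 lower, beside 5.42% and 6.04% of all probe sets. The lower one was Sesn3, given above, at -0.34. Besides Sesn2, Bnip3, which binds Rheb and acts in mitophagy, had a change of 0.84 ± 0.20 (SE; limma, adjusted p = 0.230). Trib3, an inhibitor of Akt, had changes of 0.72 and 0.86 on its 2 probe sets, which were 0.31 and 0.25 without control 2. Atf4, the factor of the amino acid response, had a change of 0.34 on its dimmest probe set and of -0.26 and -0.04 on the 2 others. Ddit4, which encodes REDD1 and releases TSC2 from its inhibition, read 10.70 and 7.96 in starved liver and 8.90 and 9.78 in control liver. The starved arrays enclosed both control arrays, and the 95% interval of the change ran from -2.10 to 2.09. Its change was 0.44 without control 2 and -1.38 without starved 1.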

How the data were processed

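Liver RNA of 2 starved and 2 control samples was hybridised to 1 Affymetrix array each. The deposited log2 values were made by the authors with RMA in affy, per the submitters' processing notes. Tool versions and the set of arrays normalized together are not stated in these notes. Because RMA equalises the arrays, it would hide a shift shared by all transcripts.

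Of 22690 probe sets, 64 Affymetrix controls were left out. The platform annotation gave 1 gene symbol to 20380 of the rest, more than 1 to 691 and none to 1555, and only the first class was named. Symbols were updated by Entrez identifier in a RefSeq table of GRCm38.p6, which matched 20351.

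All 22626 probe sets were fitted two-sided and without covariates in limma 3.58.1 (lmFit, eBayes; R 4.3.3), with Benjamini-Hochberg adjustment. Total degrees of freedom were 5.83. Permuting 2 against 2 arrays allows no p under 0.333, and precision is limited by the number of arrays. The members and lists were chosen with earlier results of these data known. Named genes are all members, Tfeb and Ddit4, and per list any gene past the test plus up to 4 with the smallest p and no overlap. Sesn3 was added after the values were seen. Alternatives covered normalization, dim probe sets, probe sets per gene, probe set types, variance settings, a replicate block, the threshold and single arrays left out.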

Additional observations from a re-analysis of the deposited data

How the results depend on the processing

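Under 12 alternatives and a looser threshold of 0.10, the count of member probe sets past the limma test stayed at 0, as did that of the 175 probe sets of the wider lists. Across these alternatives no member had an unadjusted p under 0.05, and the smallest adjusted p was 0.454. The number of all probe sets past the test, 13, was 97 at a threshold of 0.10, 8 with 1 probe set per gene, 23 without _x_at and _s_at probe sets, 59 with trend and robust settings, and 2 to 57 with single arrays left out, with 57 without control 1 and 2 without starved 1. With the replicate number as a block it was 0 in limma, where 2534 had an unadjusted p under 0.05. The titles do not say whether samples of the same number share more than that number. The deviations of starved 1 and control 1 from their group means correlated at 0.04 over probe sets. Whether samples of the same number were handled together was not tested. The median change of the members, 0.07, was 0.14 without the 40% of probe sets with the lowest mean, which left 9 members, and 0.17 with 1 probe set per gene, which left 7. It ran from 0.07 to 0.11 with single arrays left out. Of 121 recomputed member changes, 114 kept their sign. The others were Mtor 1436267_a_at, at -0.0325 to 0.11 with single arrays left out, Tsc1 1422043_at at -0.17 to 0.0664, Tsc1 1455252_at at -0.0752 to 0.16, and Eif4ebp1 1417562_at at -0.0286 to 0.31. The mean of both Tsc1 probe sets changed by -0.0061. The cause of these turns was not tested. In fits without 1 array, the spread of the lone array is taken from the other group.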

Other observations

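Probe sets of 1 gene did not always move together. Of 51 genes of the wider lists with several probe sets, 3 had probe sets whose groups were separated in opposite directions, or 5.88%, against 7.49% of the 4956 such genes on the array. Mlst8, the subunit shared by both mTOR complexes, read 5.19 and 5.20 in starved liver and 4.93 and 4.99 in control liver on 1415843_at. On 1415842_at Mlst8 read 6.05 and 6.08 in starved liver and 6.31 and 6.25 in control liver, the opposite order. Atf4 read 5.38 and 5.45 in starved liver and 5.02 and 5.12 in control liver on 1439258_at. On its brightest probe set, 1448135_at, Atf4 read 10.33 and 10.38 in starved liver and 10.39 and 10.40 in control liver. Hif1a, the hypoxia factor, was the third such gene. None of these probe sets passed the limma test, and these genes were chosen after their values were seen.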
